A study of Mus musculus with 4 samples.

Results

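The genes described are the oligoadenylate synthetase (Oas) family of the mouse, taken by symbol as Oas1a, Oas1b, Oas1c, Oas1g, Oas2, Oas3, Oasl1 and Oasl2. Of these 8 members, 7 had a row among the 21878 rows of the deposited tables, and all 7 passed the filter on low counts, which left 12332 genes. Oas1b was not analysed here. The family was taken up because earlier results of the same comparison had shown its members to differ, so the levels of the members in the groups are given as a description, without a test, and support nothing by themselves. Other genes of the pathway are given from lists, with the test over all genes.

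The libraries came from progenitor-like cells of the liver, which mature liver cells can become and which divide in culture. Both groups derive from C57BL/6 mice, with an age of 6 to 8 weeks in one label and 8 weeks in the protocol, and both were grown in transition and expansion media. HepLPC (n = 2 libraries) is the group from hepatocytes, and NPC_LPC (n = 2 libraries) the group from non-parenchymal liver cells. The protocol lists tdTomato mice that received AAV8-TBG-Cre, a virus whose promoter drives Cre in hepatocytes, and AlbCreERT/R26GFP mice, in which an albumin promoter drives an inducible Cre, in that order for hepatocytes and non-parenchymal cells. If the mice were used in that order, the mouse line and the virus differ between the groups and cannot be told apart from the cell of origin. One label of the HepLPC libraries names both origins, and the titles decided the grouping. Nothing says that replicates were separate mice or cultures, so p-values measure only the spread between these libraries, which may be technical.

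Oas proteins are sensors of double-stranded RNA. When they bind it, the active enzymes Oas1, Oas2 and Oas3 join ATP into short chains called 2-5A, a second messenger of the antiviral response. Interferon induces most of the family through ISGF3, a complex that holds Stat2 and Irf9 and binds interferon-stimulated response elements in promoters. The Oas-like proteins Oasl1 and Oasl2 carry ubiquitin-like domains, and mouse Oasl2 keeps synthetase activity. Oasl1 makes no 2-5A and is known to restrain translation of Irf7, a transcription factor that amplifies interferon production. In C57BL/6 and most other laboratory mice Oas1b carries a premature stop codon, a trait tied to susceptibility to flaviviruses.

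All members lie on chromosome 5 of the build GRCm38, the build called mm10 in the submitters' processing notes, in 2 places. One is a cluster of 191.3 kb that holds Oas2 (120730333 to 120749886), Oas3 (120753098 to 120777684), Oas1c (120800194 to 120812540), Oas1b (120812635 to 120824163), Oas1g (120876142 to 120887613) and Oas1a (120896256 to 120907544), with Oas1d, Oas1e, Oas1f and Oas1h among them. The other is the pair Oasl2 (114896926 to 114912245) and Oasl1 (114923143 to 114937911), both on the plus strand. RefSeq annotates Oas1b on this assembly as a transcribed pseudogene and the other members as protein-coding.

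Promoter sequences are given as a description of the members. The sequences are the 250 bases before the start that RefSeq's promoter table on GRCm38.p6 uses, and the table held 6 of the 8 members. That start need not be the outer edge of the gene positions given above. It lies at the edge for Oas1g and inside the gene by 19 bases for Oas1a, 26 for Oas1c, 25 for Oas3, 97 for Oasl1 and 8 for Oasl2. Distances are counted from the promoter table's start unless the edge is named. Both strands were searched for a pair of GAAA copies with any NN between them, the core of the interferon-stimulated response element, and capitals mark its matches. Of all 32851 promoters of the table, 2.98% held at least 1 match in the same window. Matches were found before Oas1a, Oas1g, Oas1c and Oas3 and not before Oasl1 or Oasl2. Oasl2, whose window is not printed, was low in HepLPC, and Oasl1 was not. A link between matches and levels was not tested.

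Oas1a, chr5:120907526-120907775, minus strand: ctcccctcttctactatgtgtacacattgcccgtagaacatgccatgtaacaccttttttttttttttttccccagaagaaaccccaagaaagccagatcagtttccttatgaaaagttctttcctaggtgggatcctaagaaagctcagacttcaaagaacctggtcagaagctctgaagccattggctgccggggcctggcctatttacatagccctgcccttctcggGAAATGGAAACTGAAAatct
Oas1g, chr5:120887614-120887863, minus strand: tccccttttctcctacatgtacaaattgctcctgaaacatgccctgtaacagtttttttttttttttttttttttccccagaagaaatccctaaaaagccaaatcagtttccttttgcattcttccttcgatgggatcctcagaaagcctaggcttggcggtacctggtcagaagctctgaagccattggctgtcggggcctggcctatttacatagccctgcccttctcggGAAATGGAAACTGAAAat
Oas3, chr5:120777660-120777909, minus strand: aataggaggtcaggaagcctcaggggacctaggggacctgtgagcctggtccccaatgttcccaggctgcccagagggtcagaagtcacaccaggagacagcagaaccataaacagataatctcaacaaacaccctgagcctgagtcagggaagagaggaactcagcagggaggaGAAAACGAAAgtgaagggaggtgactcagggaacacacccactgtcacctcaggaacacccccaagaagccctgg
Oasl1, chr5:114922990-114923239, plus strand: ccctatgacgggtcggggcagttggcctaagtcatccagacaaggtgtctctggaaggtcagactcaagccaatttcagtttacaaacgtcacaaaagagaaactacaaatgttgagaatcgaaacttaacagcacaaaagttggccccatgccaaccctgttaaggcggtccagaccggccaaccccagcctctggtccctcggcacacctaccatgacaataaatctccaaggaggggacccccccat
Between Oas1c and Oas1b, chr5:120812541-120812634, plus strand: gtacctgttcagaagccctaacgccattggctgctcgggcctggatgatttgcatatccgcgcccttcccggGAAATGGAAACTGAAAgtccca

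Oas1a and Oas1g share the run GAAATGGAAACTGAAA just before these starts, made of 2 overlapping matches, GAAATGGAAA and GAAACTGAAA. In Oas1a the run lies across the outer edge of the annotated gene. The same run stands between Oas1c and Oas1b, which are transcribed away from each other with 94 bases between them. It reads in the direction of Oas1b and ends 7 bases before the gene edge of Oas1b, so that Oas1c holds it on its other strand. There it lies 73 to 88 bases beyond the gene edge of Oas1c, which is 99 to 114 bases before the start in the promoter table. Oas3 has 1 match, GAAAACGAAA, from 75 to 66 bases before the start, or 50 to 41 bases beyond the gene edge. A second motif, TTCNNNGAA, the palindrome that STAT dimers bind, was found once, as TTCAAAGAA before Oas1a from 98 to 90 bases upstream, and 7.02% of all promoters held it. It overlapped no match of the other motif. A match describes letters in this window, and a missing match says only that these letters are not there.

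**Figure D1:**
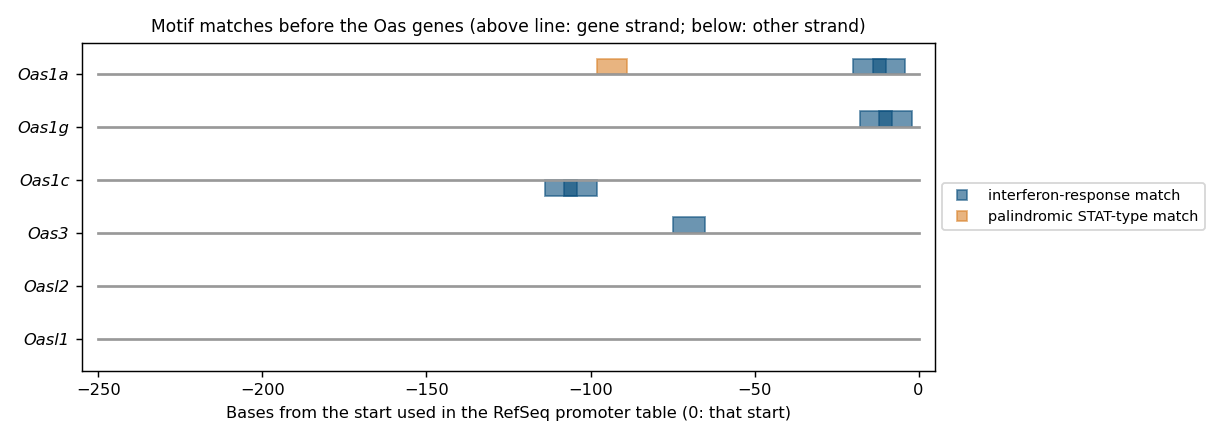
Matches of the paired GAAA motif (blue) and TTCNNNGAA (orange) in the 250 bases before the start used in RefSeq's promoter table for 6 Oas genes, with the distance from the start in bases on the x axis and boxes above or below each line for the gene's own or the other strand. Oas1a and Oas1g have overlapping matches next to the start, Oas1c has them on the other strand, Oas3 has 1, and Oasl2 and Oasl1 have none.

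In NPC_LPC all 7 measured members were present. In HepLPC Oasl1 was the abundant one, Oas1c had 29 and 13 counts, and the other members were near or at 0. Total counts were 17575998 to 20625957 per library, so that 3 counts, the limit used for a gene with no count, equal 0.149 to 0.169 CPM (read counts scaled to library size, with TMM factors). The 6 members other than Oasl1 summed to 38 and 25 counts in HepLPC replicates 1 and 2 and to 1034 and 7382 counts in NPC_LPC replicates 1 and 2. Oasl1 alone had 425 and 832 counts in HepLPC and 31 and 399 in NPC_LPC. In each group the first value is replicate 1. These are bulk libraries, in which fewer expressing cells and less RNA per cell cannot be told apart.

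**Figure D2:**
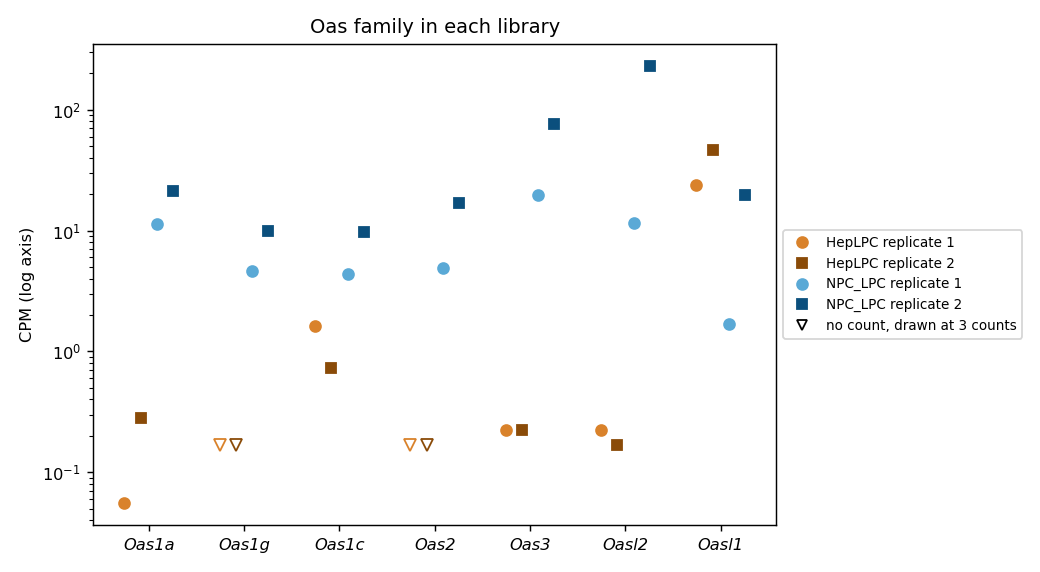
CPM on a log axis for the 7 measured Oas members in each of the 4 libraries (orange and brown HepLPC, blue NPC_LPC), with open triangles at 3 counts for genes with no count. Oas1a, Oas1g, Oas1c, Oas2, Oas3 and Oasl2 are lower in both HepLPC libraries, Oasl1 is higher there, and Oasl1 and Oasl2 have the widest gap between the NPC_LPC libraries.

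The active synthetases of the Oas1 group come first by position in the pathway. Oas1a, the mouse gene closest to human OAS1 in activity, was at 0.0555 and 0.282 CPM in HepLPC, against 11.3 and 21.2 CPM in NPC_LPC. The HepLPC values are 1 and 5 counts. Both HepLPC libraries lay far below both NPC_LPC libraries, and the lowest NPC_LPC value was 40.3-fold above the highest HepLPC value. By summed counts Oas1a was 98.6-fold higher in NPC_LPC, with a 95% interval of 45.1 to 269.8. Such intervals are exact for the ratio of summed counts and cover counting error only. They leave out the spread between libraries, because the counts are summed over the libraries of a group. Reads amplified by PCR are not independent molecules, which the intervals do not allow for either.

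Oas1g, also an active synthetase, had no count in either HepLPC library and 4.61 and 9.999 CPM in NPC_LPC. It was at least 43.5-fold higher in NPC_LPC, against a limit of 3 counts per HepLPC library. The longest protein-coding GENCODE transcripts of Oas1a and Oas1g were 97.5% identical over 1860 aligned bases, and 40.1% of the 100-base windows of Oas1a occur unchanged in Oas1g. A read that lies within such a window cannot by itself be assigned to one of the genes, so the split between Oas1a and Oas1g is uncertain. How such reads were counted was not examined, and the sum of both genes carries that limit too. The sum of both was 1 and 5 counts in HepLPC and 291 and 631 counts in NPC_LPC, so their joint level differed in the same way. No other pair of members shared a 100-base window, and the 21 other pairs that could be aligned over at least 1000 bases were 62.6% to 78.2% identical.

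Oas1c, a paralog reported to lack synthetase activity, had the smallest gap of the 6 members that were lower in HepLPC. It was at 1.61 and 0.732 CPM in HepLPC (29 and 13 counts), against 4.33 and 9.75 CPM in NPC_LPC. The groups did not overlap, and the lowest NPC_LPC value was 2.69-fold above the highest HepLPC value. By summed counts it was 6.12-fold higher in NPC_LPC, with a 95% interval of 4.41 to 8.68. The other Oas1 paralogs had few or no counts in both groups. Oas1d, Oas1f and Oas1h had no count in any library, where 3 counts would be 0.149 to 0.169 CPM, and Oas1e had 4 and 0 counts in HepLPC and 3 and 0 in NPC_LPC.

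The larger synthetases Oas2 and Oas3, built from repeated Oas units, had the same order of libraries. Oas2 had no count in HepLPC, against 4.94 and 16.98 CPM in NPC_LPC, where it was at least 65.3-fold higher. Oas3 was at 0.222 and 0.225 CPM in HepLPC, 4 counts in each library. In NPC_LPC it was at 19.9 and 76.6 CPM. The groups did not overlap for either gene, and for Oas3 the lowest NPC_LPC value was 88.1-fold above the highest HepLPC value. By summed counts Oas3 was 222-fold higher in NPC_LPC, with a 95% interval of 113 to 515.

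The Oas-like genes, neighbours on the chromosome, differed in opposite directions. Oasl2 was at 0.222 and 0.169 CPM in HepLPC, 4 and 3 counts, against 11.6 and 230.8 CPM in NPC_LPC. By summed counts it was 648-fold higher in NPC_LPC, with a 95% interval of 314 to 1613, and NPC_LPC replicate 2 supplied 4663 of the 4875 counts. Oasl1 was at 23.6 and 46.9 CPM in HepLPC, against 1.70 and 19.7 CPM in NPC_LPC. Its groups did not overlap, but the lowest HepLPC value was only 1.20-fold above the highest NPC_LPC value. The Oasl1 log2 fold change of HepLPC over NPC_LPC was 1.71, or 0.85 without NPC_LPC replicate 1 and 4.37 without NPC_LPC replicate 2, so the size of its difference rested on which NPC_LPC library was kept.

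The test over all genes was edgeR's quasi-likelihood test with Benjamini-Hochberg adjustment. At an adjusted p under 0.05 it called 0.43% of the 12332 genes tested, 0.203% lower and 0.227% higher in HepLPC, and 1 of the 7 members, Oas3, was among the lower. DESeq2 called 12.3% of the genes, 6.5% lower and 5.81% higher, with 6 of the 7 members among the lower and Oasl1 not called. Limma-voom called 0.0405% of the genes, 0.0243% lower and 0.0162% higher, and 0 of the 7 members. By edgeR, 6 of the 7 members and 11.5% of all genes were lower at an unadjusted p under 0.05. Both HepLPC libraries lay below both NPC_LPC libraries in 6 members and in 28.6% of all tested genes, and above them in Oasl1 and in 27.9%. Since the members were chosen on this contrast, nothing is read from these counts. The median log2 fold change of the 7 members was -7.71, or -6.03 with Oas1g and Oas2 at their bounds, and that of all tested genes was -0.0030. Leaving out HepLPC replicate 1 or HepLPC replicate 2 left 0 members called, where 53 genes in all became 0. Leaving out NPC_LPC replicate 1 gave 5 members of 377 genes called in all, and leaving out NPC_LPC replicate 2 gave 2 members of 107.

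Levels can be compared between genes only per length, for which FPKM as deposited by the authors was used. In NPC_LPC replicate 1, Oas1a led at 4.64 FPKM, followed by Oas3 at 3.95 and Oasl2 at 2.52. Oas1c and Oas1g stood side by side at 1.26 and 1.24 FPKM, Oas2 was at 0.746 and Oasl1 at 0.596. In NPC_LPC replicate 2 the order changed: Oasl2 led at 50.8 FPKM, Oas3 was at 14.96, Oas1a at 8.37 and Oasl1 at 7.29, above Oas1g at 3.21, Oas1c at 2.80 and Oas2 at 2.71. By the mean of the NPC_LPC libraries the order was Oasl2, Oas3, Oas1a, Oasl1, Oas1g, Oas1c and Oas2. The ranges over the 2 libraries of each neighbouring pair in that order overlapped, and the order is given as a description only. By FPKM within each NPC_LPC library, Oas1a was above Oasl1, and Oas1c was above Oas2, narrowly in replicate 2. The other neighbouring pairs changed places between the libraries.

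The make-up of the family differed between the groups and between the NPC_LPC libraries. Of the family's summed FPKM, Oasl1 took 93.8% and 97.8% in HepLPC replicates 1 and 2 and 3.99% and 8.08% in those of NPC_LPC. Oas1a took 31.0% in NPC_LPC replicate 1 and 9.29% in replicate 2, and Oasl2 took 16.9% and 56.4%. The sum over the family was 9.37 and 18.6 FPKM in HepLPC and 14.9 and 90.2 FPKM in NPC_LPC, so that HepLPC replicate 2 exceeded NPC_LPC replicate 1. Without Oasl1 the sums were 0.577 and 0.405 FPKM in HepLPC and 14.3 and 82.9 FPKM in NPC_LPC, with no overlap.

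**Figure D3:**
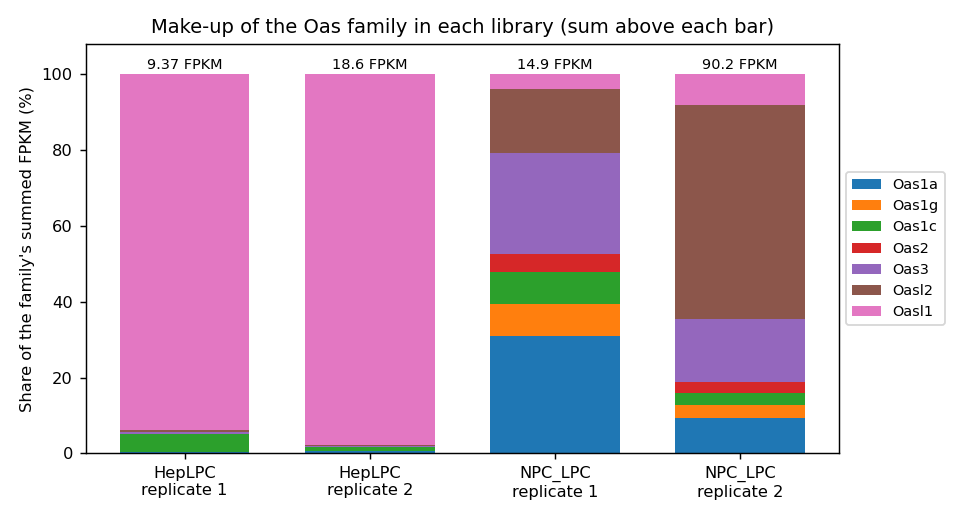
Share of the family's summed FPKM held by each of the 7 measured members, in percent, with 1 bar per library and the sum in FPKM above it. Oasl1 makes up 93.8% and 97.8% of the HepLPC bars, Oas1a leads in NPC_LPC replicate 1 at 31.0%, and Oasl2 leads in NPC_LPC replicate 2 at 56.4%.

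Within NPC_LPC, all 7 members were higher in replicate 2 than in replicate 1, as were 53.1% of all tested genes, and the members differed widely in how much. The ratio of replicate 2 to replicate 1 was 1.87 for Oas1a, 2.17 for Oas1g and 2.25 for Oas1c, with 95% counting intervals that overlapped (1.58 to 2.22, 1.67 to 2.83 and 1.72 to 2.96). It was 3.44 for Oas2 and 3.86 for Oas3, with intervals of 2.72 to 4.39 and 3.44 to 4.34. It was 11.6 for Oasl1 and 19.9 for Oasl2, with intervals of 8.05 to 17.3 and 17.3 to 22.9. The ratio was lowest in the Oas1 genes, higher in the larger synthetases and highest in the Oas-like genes. The interval of Oas3 overlapped none of the Oas1 or Oas-like genes, while that of Oas2 overlapped those of Oas1g and Oas1c. Over all 12249 tested genes with a count in replicate 1 the median ratio was 1.02, and 5% of genes lay above 2.38. A ratio as large as that of Oasl2 was found in 0.4% of these genes, and one as large as that of Oasl1 in 0.637%. Such a rise was not confined to the family. In the list of other interferon-induced genes, given below, 24 of the 24 tested genes were higher in replicate 2. Their median ratio was 5.535, against 3.439 for the 7 members. In the receptor and transcription factor list, 10 of 13 genes were higher, with a median ratio of 1.404. With 1 library on each side these ratios describe the libraries, and the intervals cover counting error only.

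Within HepLPC the members that could be followed did not move together, where 50.4% of all tested genes were higher in replicate 2. Oasl1 was 1.99-fold higher in replicate 2 than in replicate 1, with a counting interval of 1.77 to 2.24. Oas1c was lower in replicate 2, at a ratio of 0.455 with an interval of 0.217 to 0.903. Oas3 and Oasl2 had too few counts to tell the libraries apart, with intervals of 0.189 to 5.45 and 0.111 to 4.50.

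**Figure D4:**
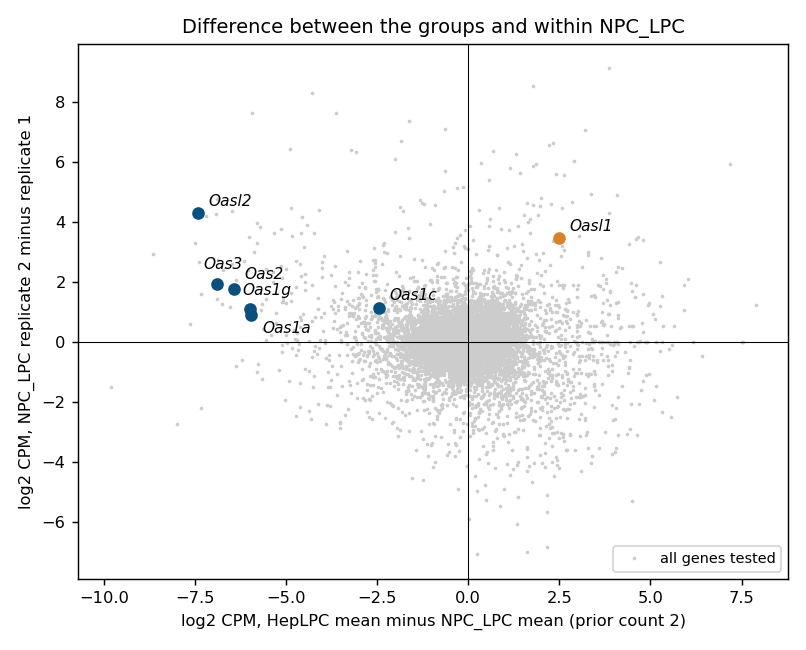
All 12332 tested genes (grey) and the 7 measured Oas members, with the log2 CPM difference between HepLPC and NPC_LPC on the x axis and that between NPC_LPC replicates 2 and 1 on the y axis (prior count 2). The 7 members lie above 0 on the y axis, Oas1a and Oas1g low and Oasl2 high, and Oasl1 is the member on the right of the x axis.

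The 3 genes given from the list on 2-5A turnover were present in both groups, which overlapped for Pde12 and Akap7 and not for Abce1. Abce1, a ribosome recycling factor, was at 563 and 406 CPM in HepLPC, against 342 and 331 CPM in NPC_LPC. Pde12, a phosphodiesterase that degrades 2-5A, was at 19.9 and 34.6 CPM in HepLPC, against 24.3 and 32.03 CPM in NPC_LPC. Akap7, whose protein has a related 2-5A degrading domain, was at 10.6 and 15.2 CPM and at 16.2 and 12.1 CPM. The edgeR test called 0 of these 3 genes, with 0 at an unadjusted p under 0.05, and DESeq2 called 0.

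Among the other genes of the pathway, most had lower fitted values in HepLPC and none passed the edgeR test. Over 6 lists, 51 of 67 genes with a row could be tested, 48 had a fold change below 0 and 3 above. Of all 12332 tested genes, 6188 had a fold change below 0. The edgeR test called 0 of the 51, with 41 at an unadjusted p under 0.05 against 21.9% of all tested genes. DESeq2 called 38, all lower in HepLPC, where it called 6.5% of all tested genes lower. The lists, like the members, were chosen with earlier results of these data known, so nothing is read from these counts. Leaving out NPC_LPC replicate 1 gave 35 of 377 edgeR calls in all, and leaving out NPC_LPC replicate 2 gave 5 of 107, while leaving out HepLPC replicate 1 or HepLPC replicate 2 gave 0 each.

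The receptor and transcription factor list had 13 tested genes, 12 with a fold change below 0 and a median log2 fold change of -0.74. Jak1, a kinase of the interferon receptor, was at 96.5 and 137 CPM in HepLPC, against 309 and 288 CPM in NPC_LPC (fitted log2 fold change of -1.35 with an SE of 0.27 and an edgeR adjusted p = 0.084). The ISGF3 subunits named above, given after their values were seen, were Stat2 with 22.9 and 30.1 against 119 and 188 CPM and Irf9 with 7.05 and 9.46 against 38.9 and 69.2 CPM. The groups did not overlap for these 3 genes, and none passed the edgeR test. Irf7, the factor whose translation Oasl1 restrains and also chosen after its values were seen, was at 2.17 and 1.13 CPM in HepLPC, against 12.7 and 114 CPM in NPC_LPC.

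Interferon genes themselves were not detected above the limit of 3 counts. Of 11 listed ligand genes, 10 had no count in any library, Ifnb1 among them, and Ifne had 2 and 1 counts in HepLPC and none in NPC_LPC. A gene below 0.149 to 0.169 CPM, the value of 3 counts, could go without a count at this depth.

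Of 10 other responders to double-stranded RNA and nucleic acid, 9 had fold changes under 0, and the median on the log2 scale was -2.60. Eif2ak2, the kinase PKR, was at 59.6 and 63.0 CPM in HepLPC, against 125 and 280 CPM in NPC_LPC (edgeR adjusted p = 0.107). Adar, an enzyme that edits double-stranded RNA, was at 57.3 and 58.7 CPM in HepLPC, against 87.7 and 191 CPM in NPC_LPC (edgeR adjusted p = 0.16). Of 24 tested genes in the list of other interferon-induced genes, 24 had fold changes under 0, and the median was -5.61, with or without 3 genes at their bounds. The genes chosen by mean CPM, which does not rank genes per length, were Lgals3bp, with 135 and 226 against 854 and 1447 CPM, and Samd9l, with 28.5 and 55.4 against 272 and 332 CPM, HepLPC first.

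**Figure D5:**
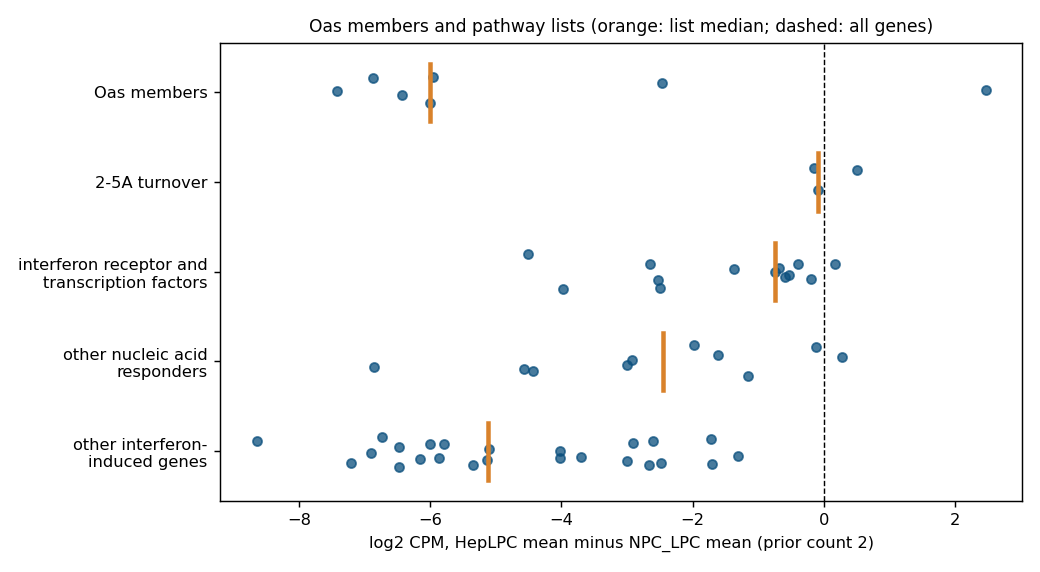
Difference in log2 CPM between HepLPC and NPC_LPC (prior count 2) for each tested gene of the Oas family and 3 pathway lists and the 3 genes given for 2-5A turnover, with an orange bar at the list median and a dashed line at the median of all tested genes. The Oas members other than Oas1c and Oasl1 lie below -5, within the range of the other interferon-induced genes, and the 2-5A turnover genes lie closer to 0.

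The 5 genes nearest to the family's median profile, by root mean square distance of centred log2 CPM over the 4 libraries among 10041 candidates, were Ifi203, Ifi205, Casp12, Inhba and Lxn. Their distances were 0.226, 0.244, 0.364, 0.391 and 0.439 on the log2 scale. Ifi203 was at 1.17 and 1.63 CPM in HepLPC, against 52.7 and 110.0 CPM in NPC_LPC. Ifi205, another gene of the interferon-induced PYHIN family, was at 0.444 and 0.394 and at 17.0 and 41.6 CPM. Casp12, a caspase gene, had no count in HepLPC, against 4.28 and 18.4 CPM in NPC_LPC. Inhba, a subunit of activin, and Lxn, a carboxypeptidase inhibitor, were at 194 and 524 and at 23.6 and 64.5 CPM in NPC_LPC, and at 4.67 and 9.52 and at 0.222 and 0.225 CPM in HepLPC. Of the members themselves, Oas1g was nearest to that profile (0.122), and Oasl1 (4.35), Oas1c (1.85) and Oasl2 (1.30) were farthest. The profile is the median over the members, and in each library its value is that of Oas1g or Oas2. The closeness of Oas1g is therefore built in. Both genes had no count in HepLPC, where their log2 CPM rests on the prior count of 2.

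Nearby genes with a row on either side of the Oas loci were looked up, and none of those given passed the edgeR test. Beside the cluster, Cfap73 and Dtx1 had no count in any library, and Rasal1 and Rph3a had at most 8 and 3. Ptpn11, a phosphatase 208.9 kb beyond the cluster, was at 185 and 163 CPM in HepLPC, against 167 and 249 CPM in NPC_LPC. Rpl6, a ribosomal protein gene, was at 741 and 849 CPM in HepLPC, against 444 and 543 CPM in NPC_LPC. Beside the Oasl pair, 2210016L21Rik, 4.2 kb beyond Oasl1, was at 24.8 and 41.3 CPM in HepLPC, against 26.3 and 31.98 CPM in NPC_LPC. Sppl3 was at 25.8 and 35.0 and at 37.5 and 46.9 CPM, and 2610524H06Rik at 6.78 and 8.00 and at 3.46 and 7.08 CPM. On the other side, 4930519G04Rik had no count and Gm9936 at most 5. Of these 11 neighbours 5 could be tested. The edgeR test called 0, with 1 (Rpl6) at an unadjusted p under 0.05, and DESeq2 called 0.

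Markers of other cells were checked beside these results. Of 10 macrophage markers, 4 (Clec4f, Vsig4, Cd5l and C1qb) had no count in any library. Most of the signal of these markers came from Cd68 alone. Its level was 21.7 and 13.3 CPM in HepLPC, against 79.7 and 20.35 CPM in NPC_LPC. For all 10 together the values were 25.0 and 15.2 CPM, against 82.1 and 21.4 CPM. Csf1r and Lyz2 were also lower in NPC_LPC replicate 2 than in replicate 1. Adgre1, Marco and C1qa had 1, 3 and 1 counts in NPC_LPC replicate 2 and none in any other library. Whether macrophages contributed to the Oas levels was not tested. Of 8 lymphocyte and plasmacytoid dendritic cell markers 5 had no count, and the list summed to at most 1.86 CPM. The 7 endothelial markers summed to at most 7.44 CPM, with Clec4g at 0 and Pecam1 at no more than 1 count. The 9 stellate cell and fibroblast markers summed to 548 and 688 CPM in HepLPC and 2582 and 3684 CPM in NPC_LPC, with Lrat at 0 and most of the sum from Fbln2. Fbln2, at 534 and 680 CPM in HepLPC and 2576 and 3667 CPM in NPC_LPC, moved with the low Oas members between the groups. Of the 4 markers of this list that were tested, 2 had lower and 2 higher fitted values in HepLPC. Reln was among the higher, at 8.8 and 5.4 CPM in HepLPC and 0.49 and 1.1 CPM in NPC_LPC. Acta2 and Col3a1 had 46 and 21 counts in NPC_LPC replicate 2 and none in any other library. Col1a1 was at 4.05 and 1.80 CPM in HepLPC and 2.74 and 11.8 CPM in NPC_LPC. Within NPC_LPC, 3 of the 4 tested markers were higher in replicate 2, while Des and Dcn were lower there. A part of such cells in the result was not tested. The 6 mesothelial markers summed to 202 to 822 CPM in HepLPC and 232 to 613 CPM in NPC_LPC. The 7 biliary and progenitor markers of the labelled cell type summed to 3407 to 10340 CPM over all libraries, with uneven parts. Spp1 alone was at 3024 and 904 CPM in HepLPC and 8939 and 4201 CPM in NPC_LPC. Epcam was at most 1.75 CPM in any library, Krt7 at 1.43 CPM in NPC_LPC replicate 1 and Prom1 at 0.693 CPM in NPC_LPC replicate 2. By fitted fold change 5 of these markers were higher in HepLPC and 2 lower. The 7 hepatocyte markers summed to 244 and 252 CPM in HepLPC and 27.7 and 50.05 CPM in NPC_LPC, with Cyp2e1 at 0. Hnf4a alone made up 235 and 249 CPM of the HepLPC sums and 27.4 and 49.9 CPM of the NPC_LPC sums, and Alb was at most 2.28 CPM in any library.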

How the data were processed

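The 4 libraries were stranded, paired-end and made from polyadenylated RNA of cultured cells, per the labels' protocols. HISAT2, HTSeq, Cufflinks, DESeq and Trimmomatic and the build mm10 are named, without versions, by the submitters' processing notes. No source used here names the annotation or says whether reads were counted by strand. Per the file headers, the authors deposited a read count and an FPKM value per gene symbol.

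Counts were tested with edgeR 4.0.16 (TMM, filterByExpr, quasi-likelihood, group as the only term, two-sided, Benjamini-Hochberg over all genes, threshold 0.05), in R 4.3.3. The SE was derived from the F statistic. CPM uses total counts times TMM factors. An exact permutation test of 2 against 2 cannot go below p = 0.333 and was not run. Alternatives were DESeq2 1.42.0, limma 3.58.1 on voom values and log2 FPKM, other scalings and filters, the replicate block, leaving out each library and a threshold of 0.01. The tests were checked on simulated data. The members and lists were chosen with earlier results of these data known. Named were all members and paralogs, all genes of the 2-5A turnover list, up to 3 passing or else the 2 genes with the highest mean CPM of the other lists, the 5 genes nearest in pattern among those averaging 5 CPM or more, and the 3 nearest genes with a row on each side of both loci. Positions came from RefSeq (GRCm38.p6) and transcripts from GENCODE M21. A few genes that these rules name are not reported here.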

Additional observations from a re-analysis of the deposited data

How the results depend on the processing

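The log2 fold changes of the 7 measured members kept their sign under all 16 alternative fits, with a range of -8.36 to -3.08 for Oas3 and 0.853 to 4.37 for Oasl1. Kept signs are no sign of stability, since the members were chosen on these libraries. The median over the members moved to -1.62 on log2(FPKM + 1), with and without a filter, and to -4.40 on log2(FPKM + 0.1), where the pseudocount shrinks low values, and ranged from -8.36 to -6.02 when single libraries were left out.

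Counts of calls depended on the test. Main counts were 53 genes in all, 1 member and 0 genes of the pathway lists. In the same order, DESeq2 gave 1517, 6 and 38, limma-voom 5, 0 and 0, no filter on low counts 593, 5 and 33, limma on log2(FPKM + 1) 111, 1 and 2, that without a filter 0, 0 and 0, and limma on log2(FPKM + 0.1) 69, 2 and 2. TMMwsp, RLE, upper quartile and library totals gave 65, 66, 66 and 70 genes and 2 members each, and library totals called 1 pathway gene. A threshold of 0.01 gave 0, 0 and 0. Leaving out single libraries gave 0 to 377 genes, 0 to 5 members and 0 to 35 pathway genes. With the replicate block the counts were 136, 4 and 17. The replicate numbers are not said to pair the libraries, and the differences between replicates 1 and 2 of the groups had r = -0.0169 over 12332 genes. The cause of these changes was not tested. The order of the members by their NPC_LPC mean per length, checked after seeing the data with CPM per kilobase of transcript, was the same for all 7. Within single libraries neighbours swapped places: Oas1c and Oas1g in NPC_LPC replicate 1, Oas1c and Oas2 in NPC_LPC replicate 2, and Oas3 and Oasl2 in HepLPC replicate 2. In HepLPC, 5 members had at most 5 counts in each library, which limits the precision of their folds.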
